A study of Homo sapiens with 9 samples.

Results

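A clone of AsPC-1 cells carrying the second STOML2 hairpin (sh2) was compared with a clone carrying the empty plasmid (control). AsPC-1 is an established human pancreatic adenocarcinoma line. Differences are between the 6 arrays titled for these 2 groups, 3 each. The spread behind the p-values was estimated over all 9 arrays in the series. Of 21448 rows, the 17709 that carry 1 gene symbol were used, which stand for 17687 genes. Control cells had received the blank pBAsi-hU6 NEO plasmid, and sh2 cells the same plasmid with the shRNA-2 insert against SLP-2, the product of STOML2. Cells of every group, the first hairpin clone (sh1, shRNA-1 insert) included, went through 3 weeks of Geneticin selection, and 1 colony of each was grown on. A group is therefore 1 clone, and nothing in the labels says that its 3 arrays came from separate cultures. P-values then cover only the variation among arrays of the same clone, pooled over all 9 arrays and possibly technical alone. An effect of the hairpin cannot be told apart from a difference between 2 clones. From 100 ng of total RNA per array, biotin-labelled sense-strand DNA was hybridised to 1-colour whole-transcript arrays.

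SLP-2 is a protein of the mitochondrial inner membrane that binds cardiolipin and prohibitins and helps to organise membrane domains in which respiratory complexes and proteases sit. Pancreatic adenocarcinoma cells are epithelial cells of ductal character, usually with an activated RAS pathway that signals through the kinase ERK, and they vary in how far they keep epithelial junctions.

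Values are deposited log2 signals, so a difference of 1 is a 2-fold difference. A gene is called when limma's moderated test gave an adjusted p (Benjamini-Hochberg over all 21448 rows) under 0.05, and "rose" and "fell" are used of called genes alone. Of the 17687 genes, 3089 were called (17.5%), of which 1558 were higher in sh2 (8.81%) and 1531 lower (8.66%). At 2-fold or more, 877 were called (4.96%), with 396 higher (2.24%) and 481 lower (2.72%). The median difference over all genes was 0.01 and the median size of a difference was 0.21. Gene lists described below were chosen with earlier results of these data known. A list's called share beside that of all genes is therefore a description and not a test of the list. Across rows, arrays of the same group correlated at r = 0.994 to 0.996, and control with sh2 arrays at 0.983 to 0.985. The median SD over 3 arrays was 0.160 in the control and 0.179 in sh2. Array medians lay between 6.57 and 6.65, and 4.21, the lower quartile over all row means, was used to mark signals close to the background. Of the 396 genes at least 2-fold higher, 36 had a control mean under that mark, and of the 481 lower, 31 had an sh2 mean under it, where a low signal sets a floor to what the difference can show.

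STOML2, the targeted gene, gave 13.70, 13.66 and 13.65 on the control arrays and 7.85, 7.99 and 7.35 on the sh2 arrays. No sh2 array came near the control arrays, and sh2 array values spread more widely than control values (SD 0.34 against 0.03, n = 3 each). STOML2 fell by 5.94 (SE 0.16, adjusted p = 1.63e-09). Of the 12 measured genes for stomatins, prohibitins and inner membrane proteases, 1 other was called (16.7% called, against 17.5% of all genes). PHB1, a prohibitin of the inner membrane ring complexes that SLP-2 binds, gave 15.24, 14.98 and 15.19 on the control arrays and 14.70, 14.45 and 14.35 on the sh2 arrays and fell by 0.64 (adjusted p = 0.00672). Its 40 nearest brighter neighbours on chromosome 17 had a median difference of -0.32.

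The label of a pancreatic duct carcinoma line was set against marker genes. Keratins of simple epithelia were among the brightest signals in sh2, with means of 16.90 for KRT8, 14.64 for KRT18 and 15.62 for KRT19, and EPCAM and CDH1 (E-cadherin) were at 9.68 and 8.19. KRT8 rose by 0.70, KRT18 by 1.27 and EPCAM by 0.74 (adjusted p = 0.00152, 0.000122 and 0.00361). KRT8 and KRT18 lie side by side on chromosome 12, where their neighbours had a median difference of 0.38. KRT19 fell by 0.57 and CDH1 by 0.52 (adjusted p = 0.0286 and 0.0419). KRT19 was not called without any 1 of control arrays 1, 2 and 3 and sh2 arrays 2 and 3 (adjusted p = 0.0639 to 0.0855), nor CDH1 without control array 1, 2 or 3, sh1 array 1 or sh2 array 1 or 3 (0.0521 to 0.137). Of 14 measured ductal markers, CFTR and TFF1 were under the lower quartile in both groups, and CEACAM5 stood at 4.78 in sh2. None of 10 measured markers of acinar and endocrine pancreas, 10 of endothelium and 10 of neural and melanocytic cells was called, and 7, 3 and 7 of them lay under the lower quartile in both groups. Of 13 leukocyte markers, PTPRC alone was called, at means of 4.64 and 3.99, and not without control array 2 or 3 or sh2 array 2 or 3 (adjusted p = 0.0563 to 0.0714). Of the 13, 7 lay under the lower quartile in both groups, but the highest mean was 12.40 in the control and 12.81 in sh2. Of 12 fibroblast and stellate markers, COL1A1 and COL1A2 fell and POSTN rose, as given with the matrix genes. In bulk RNA, fewer cells of a type and less RNA per cell cannot be told apart.

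Promoter sequences are shown for genes of 3 lists in which a short motif was found at a larger share of members than of all genes, so that the letters stand beside the signals given further on. All windows are from RefSeq (GRCh38.p14), and the search covered 250 bases before the start site on both strands, for the 14250 measured genes with an entry. The motifs were chosen after the values were seen. TGANTCA, the AP-1 motif bound by FOS and JUN proteins, was found at 7.23% of all genes, at 5 of 14 protease-activated receptor and plasminogen genes, and at 4 of the 7 among them that rose. The 4 windows of 80 bases below, all on the minus strand, have the motif in capitals. They are F2RL2 at chr5:76623404-76623483, F3 at chr1:94541930-94542009, PLAUR at chr19:43670313-43670392 and TFPI2 at chr7:93890798-93890877.
F2RL2: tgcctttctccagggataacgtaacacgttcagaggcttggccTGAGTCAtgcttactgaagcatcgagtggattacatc
F3: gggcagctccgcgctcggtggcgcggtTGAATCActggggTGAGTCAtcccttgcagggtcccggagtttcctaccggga
PLAUR: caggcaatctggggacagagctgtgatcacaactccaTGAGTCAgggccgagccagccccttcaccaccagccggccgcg
TFPI2: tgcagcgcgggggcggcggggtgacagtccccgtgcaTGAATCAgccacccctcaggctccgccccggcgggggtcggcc

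Counted from the start site, the capitals lie at -37 to -31 in F2RL2, at -186 to -180 in PLAUR and at -87 to -81 in TFPI2. F3 holds 2 matches between -223 and -204. Over the 396 genes at least 2-fold higher, the motif was present at 9.03% of those with an entry, and over the 481 lower at 7.75%, both near the share of all genes. A match is a description of letters and not of a bound site.

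GAAA, any 2 bases and GAAA again, the core of the interferon-stimulated response element (ISRE) read by IRF proteins and the STAT-containing complex ISGF3, was found at 3.56% of all genes and at 22 of 39 interferon-stimulated genes. Of the interferon genes with an entry, it was present at 7 of the 16 that fell and at 3 of the 5 that rose. Its presence therefore did not go with 1 direction. Among antigen presentation genes it was found at 5 of the 11 that fell. Shown on the minus strand are GBP1 at chr1:89065291-89065370, TAP1 at chr6:32853791-32853870 and TAPBP at chr6:33314079-33314158. The capitals mark the motif, which in GBP1 and TAP1 reads as its reverse complement.
GBP1: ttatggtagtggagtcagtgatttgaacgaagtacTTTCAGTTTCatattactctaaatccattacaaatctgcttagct
TAP1: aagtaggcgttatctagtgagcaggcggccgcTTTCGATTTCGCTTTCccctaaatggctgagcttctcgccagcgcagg
TAPBP: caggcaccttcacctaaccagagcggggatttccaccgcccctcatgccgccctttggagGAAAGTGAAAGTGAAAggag

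TAP1 and TAPBP each hold 2 overlapping matches. The other motifs searched were TTCNNNGAA (GAS), CAGGAAGT (ETS), the sterol response element (CACCCCAC preceded by AT) and the CACCCCAC core alone, TGATGCAAT (amino acid response element), CArG (CCATAT followed by TAGG) and the E-box CACCTG. Of the 12 cholesterol genes that fell and have an entry, 0 hold the sterol element or its core, and of the 9 such ERK feedback genes that rose, 0 hold the ETS motif, against 3.41% for the core and 3.42% for ETS over all genes. That says only that these letters are not in this window.

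The largest gains in sh2 were led by MAL2, MMP1 and HGF. MAL2, a raft protein that carries cargo to the apical surface of epithelial cells, gave 3.65, 3.25 and 3.52 on the control arrays and 13.41, 13.30 and 13.10 on the sh2 arrays. Control signals of MAL2 lay under the lower quartile of rows and every sh2 signal was among the bright rows. MAL2 rose by 9.80 (SE 0.14, adjusted p = 6.26e-12), the largest difference of any gene. MMP1, the interstitial collagenase, gave 6.06, 5.91 and 4.95 on the control arrays and 14.10, 13.56 and 13.67 on the sh2 arrays and rose by 8.14 (adjusted p = 1.07e-08). HGF, the ligand of the receptor MET and normally a product of stromal cells, gave 4.30, 4.71 and 4.31 on the control arrays and 11.71, 12.12 and 12.03 on the sh2 arrays and rose by 7.51 (adjusted p = 1.63e-09). For all 3 genes the groups lay several log2 units apart. The same genes were also higher in sh2 than in sh1, by 6.51 for MAL2, 6.28 for MMP1 and 4.01 for HGF, with adjusted p of 6.3e-10, 1.18e-07 and 3.73e-07.

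MET itself stood at 12.23 in the control and 12.41 in sh2 (adjusted p = 0.482), so ligand and receptor were both well above the background in sh2. ST14, the membrane protease matriptase that activates the HGF precursor, and its inhibitor SPINT1 stood at 4.80 and 6.64 in sh2. SPINT1 rose by 0.66 (adjusted p = 0.0273), a call lost without control array 1 or 2 or sh2 array 1 or 2 (0.0739 to 0.114), while it was far lower in sh2 than in sh1 (-5.31, adjusted p = 1.92e-08).

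Other members of the 15 largest gains fall into several kinds. SPARC, a matrix glycoprotein, rose by 7.06, and TNIK, a kinase that acts in WNT signalling, by 6.75 from 4.30. SCIN, a calcium-dependent actin-severing protein, rose by 5.66, and NCAM1, a neural adhesion molecule, by 5.43. PARM1, a mucin-like membrane protein, rose by 5.19, and EYA1, a transcriptional coactivator with phosphatase activity, by 5.17. F2RL2, the thrombin receptor PAR3, rose by 5.0, and AGR2, a disulfide isomerase of the endoplasmic reticulum needed for mucin secretion, by 4.68 from the already clear signal of 8.48. TNFRSF11B (osteoprotegerin, a secreted decoy receptor) rose by 4.51, PDE4B, which degrades cyclic AMP, by 4.29, EREG (epiregulin, a ligand of the EGF receptor) by 4.19 and SLC16A7, a monocarboxylate transporter, by 4.17. The largest adjusted p among these 15 was 8.96e-08, and all 3 sh2 arrays were above all 3 control arrays for each. Secreted factors just below that rank included STC1 (stanniocalcin), which rose by 4.03, and BDNF (a neurotrophin), which rose by 4.07.

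**Figure D1:**
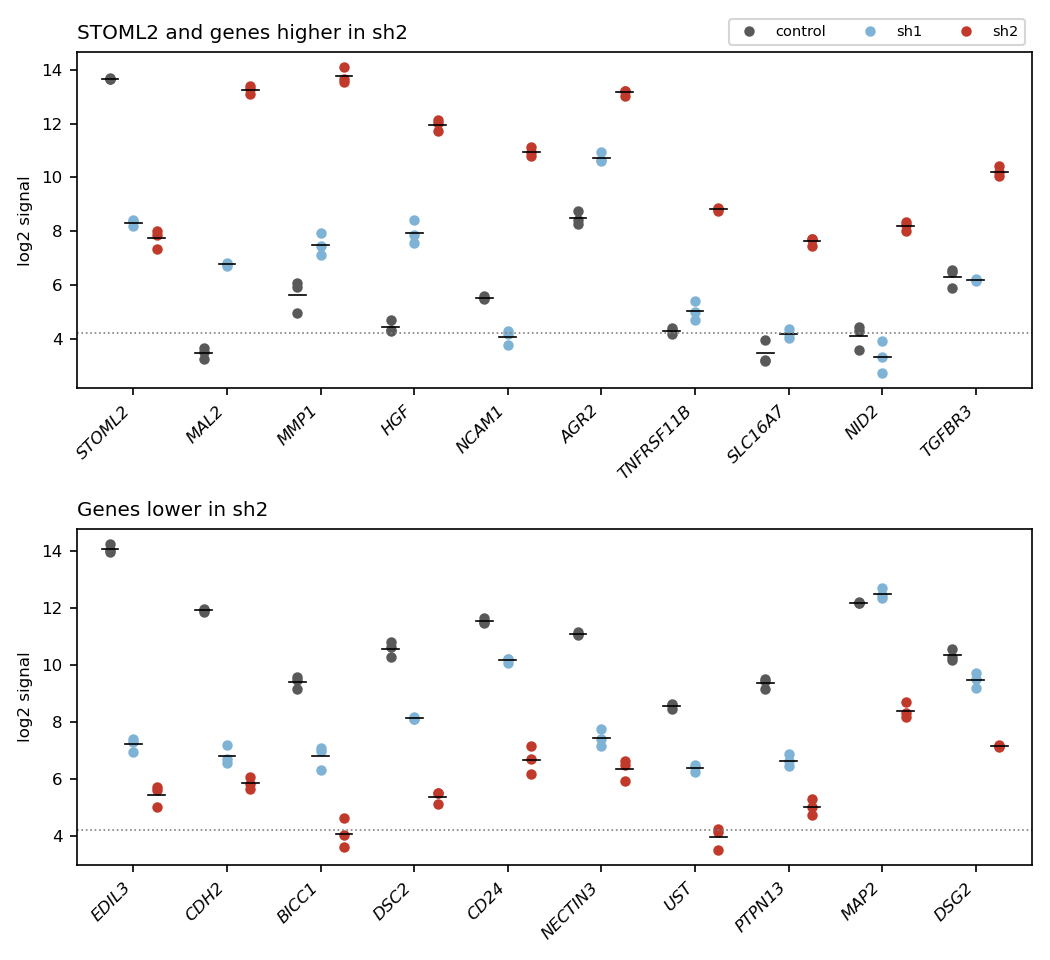
Log2 signal (vertical axis) on each array for STOML2 and genes higher in sh2 (top) and genes lower in sh2 (bottom); points are single arrays in control (grey), sh1 (blue) and sh2 (red), short lines are means, and the dotted line is the lower quartile of row means (4.21). MAL2 went from 3.47 to 13.27 and EDIL3 from 14.07 to 5.44, with no overlap of control and sh2 arrays in any gene shown.

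The largest losses were led by EDIL3, PLPP4 and several adhesion genes. EDIL3, a secreted integrin-binding protein, gave 14.02, 13.95 and 14.24 on the control arrays and 5.71, 5.0 and 5.61 on the sh2 arrays. Its sh2 signals lay below the array medians and above the lower quartile of rows. EDIL3 fell by 8.63 (SE 0.20, adjusted p = 3.59e-10), the largest loss of any gene. PLPP4, a lipid phosphatase of the plasma membrane, fell by 6.29, and BICC1, an RNA-binding protein, by 5.32. CADM1, CDH2 (N-cadherin), DSC2, CD24, NECTIN3 and ALCAM, all surface adhesion proteins, are described below. UST, a sulfotransferase of dermatan chains, fell by 4.6, and TPD52L1, a vesicle trafficking protein, by 4.38. NRP2, a co-receptor of semaphorins and VEGF-C, fell by 4.38, PTPN13, a large tyrosine phosphatase, by 4.34 and DPYSL3, a cytoskeletal protein of the collapsin response family, by 4.33. The largest adjusted p among the 15 largest losses was 3.6e-06, with the sh2 arrays below the control arrays for each. In the plot of differences against mean signal, genes past 4 log2 numbered 19 higher and 16 lower.

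**Figure D2:**
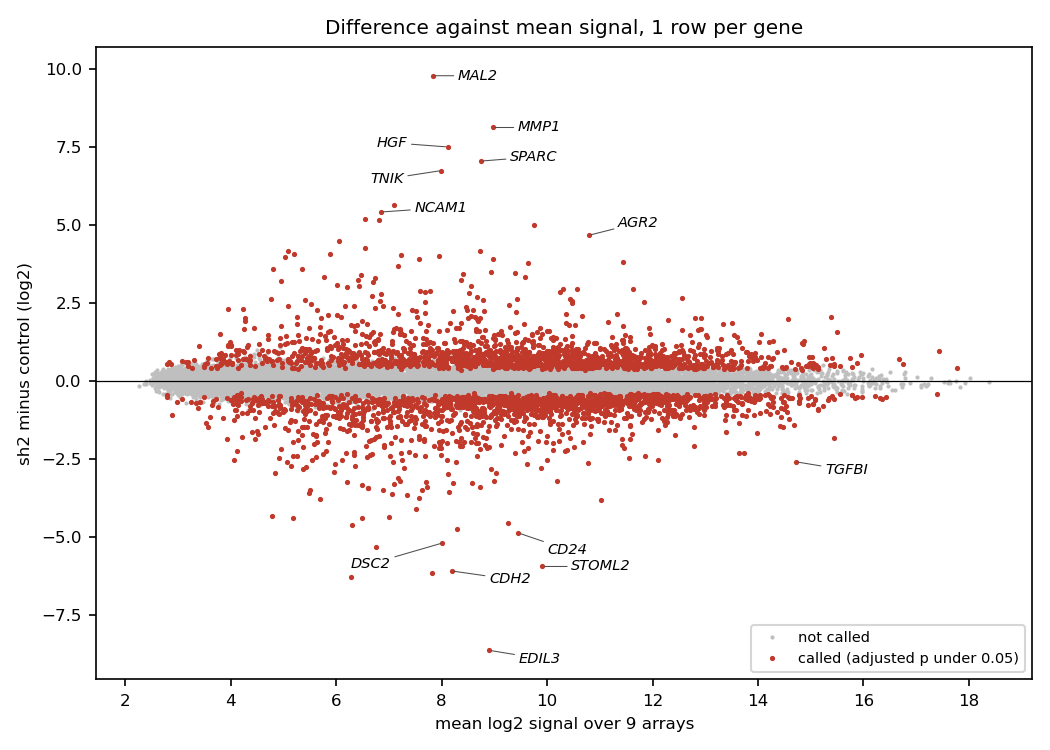
Difference of sh2 minus control (log2, vertical axis) against the mean signal over 9 arrays (log2, horizontal axis), 1 point per gene; red points are called and grey points are not. MAL2, with a control mean of 3.47, lies highest and EDIL3 lowest, and TGFBI, at a mean control signal of 16.40, is a bright gene that fell by 2.58.

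Called genes that report on ERK signalling were nearly all higher in sh2. Sprouty and SPRED proteins and DUSP phosphatases are induced by ERK and act back on the pathway as inhibitors, and ETV1, ETV4 and ETV5 are transcription factors induced by it. Of 23 measured members, 13 rose and 1 fell, a called share of 60.9% against 17.5% of all genes, and the median difference was 0.84 against 0.01. ETV1 gave 5.48, 5.90 and 5.85 on the control arrays and a mean of 9.79 (SD 0.21, n = 3) on the sh2 arrays, of which the lowest read 9.58. ETV1 rose by 4.05 (adjusted p = 7.62e-08) and was also above sh1, by 3.64 (adjusted p = 3.73e-07). SPRY2 gave 6.79, 6.75 and 6.64 on the control arrays and 9.14, 9.28 and 9.39 on the sh2 arrays and rose by 2.54 (adjusted p = 9.27e-08), again above sh1 by 2.23 (adjusted p = 5.38e-07). Groups overlapped in neither gene. SPRY1 rose by 2.55, SPRY4 by 2.29, DUSP6 by 2.27 and ETV5 by 1.81 (adjusted p = 5.37e-06, 4.24e-06, 3.65e-05 and 1.76e-06). PHLDA1, ETV4, SPRED3, FOSL1, SPRED1 and DUSP5 rose by 0.84 to 1.29. JUN, an AP-1 subunit counted in the list, fell by 1.95 (adjusted p = 0.00326), and DUSP4 differed by -0.43 (adjusted p = 0.176). Members on chromosomes 5, 6, 12, 13 and 15, whose genes as a whole were shifted, were then left out. Of the 16 that remained, 8 rose and 1 fell, with a median of 0.39. Over all genes off those chromosomes, 1143 of 14266 were higher and 1015 lower, with a median of 0.01. Without sh2 array 1 the lower count of the whole ERK list was 3.

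Called growth factor ligands that act upstream of ERK were mostly higher, with 3 higher and 0 lower of 10 EGF family ligands (30% called). Off the 5 shifted chromosomes 2 of 7 EGF family ligands were higher and 0 lower. Of 17 ligands of the FGF, PDGF, VEGF and IGF families, 4 were higher and 1 lower (29.4% called, against 17.5% of all genes). Among EGF family genes EREG gave 6.04, 6.61 and 6.29 on the control arrays and 10.56, 10.23 and 10.71 on the sh2 arrays, with no overlap of the groups, and rose by 4.19 (adjusted p = 4.54e-08). NRG4, a ligand of ERBB4, rose by 2.28, and ERRFI1, a feedback inhibitor of the EGF receptor, by 0.98. The ligand NRG1 rose by 0.69 (adjusted p = 0.0127), a call lost without control array 2 or sh2 array 3 (0.0506 to 0.0509). LRIG1, which promotes the degradation of ERBB receptors, fell by 2.37 (adjusted p = 0.000187). EGFR differed by -0.17 and ERBB3 by 0.39 (adjusted p = 0.467 and 0.269). Of all 45 measured genes of FGF, PDGF, VEGF and IGF signalling, receptors and binding proteins included, 11 rose and 5 fell (35.6% called). IGFBP3, a carrier of insulin-like growth factors, rose by 2.86, MERTK, a receptor tyrosine kinase of the TAM family, by 2.57 and the growth factor IGF2 by 2.52 (adjusted p = 9.72e-06, 1.41e-06 and 3.53e-06). IGFBP7 gave 11.89, 11.54 and 11.62 on the control arrays and 9.97, 9.82 and 9.73 on the sh2 arrays and fell by 1.84 (adjusted p = 3.6e-06), while the insulin receptor INSR fell by 1.45 (adjusted p = 0.000997). On the sh1 arrays IGFBP7 was brighter than in the control, so that sh2 minus sh1 was -2.89 (adjusted p = 1.44e-07). The lower count of this list was 3 without control array 1, control array 3 or sh2 array 3.

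Called receptors and inhibitors of clotting and plasminogen proteases were all higher. Thrombin cleaves protease-activated receptors, tissue factor (F3) starts clotting, and the urokinase receptor (PLAUR) gathers plasminogen activation at the cell surface. Of 18 measured members, 7 rose and 0 fell (38.9% called, against 17.5% of all genes), and the median difference was 0.45. Their promoters with the AP-1 letters are those printed above for F2RL2, F3, PLAUR and TFPI2. F2RL2 gave 7.17, 6.80 and 6.90 on the control arrays and 12.19, 11.85 and 11.82 on the sh2 arrays and rose by 5.0 (adjusted p = 5.68e-09). It lies on chromosome 5, where its 40 brighter neighbours had a median of -0.25, so the gain ran against its surroundings. F3 gave 4.78, 5.40 and 4.32 on the control arrays and 6.97, 6.77 and 6.91 on the sh2 arrays and rose by 2.05 (adjusted p = 7.82e-05). TFPI2, an inhibitor of trypsin-like proteases in the matrix, was close to the background in the control, gave 3.38, 4.16 and 3.40 on the control arrays and 5.54, 5.03 and 5.45 on the sh2 arrays and rose by 1.69 (adjusted p = 0.000194). In none of these genes did an sh2 array overlap a control array. SERPINE2, PLAUR, TFPI and PROCR rose by 1.5, 1.36, 1.27 and 0.64. Against sh1, 5 members were higher and 0 lower, PLAUR among them at 1.11 (adjusted p = 0.000688), on the same sh2 arrays. Over all genes 6.32% were higher than in sh1 and 6.04% lower. F2R (PAR1) differed by 0.36 and PLAU (urokinase) by 0.37 (adjusted p = 0.0759 and 0.065).

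Called basement membrane genes were mostly higher, while called interstitial collagens were mostly lower. Laminins, type IV collagen, nidogens and perlecan form the sheet under an epithelium. Of 18 measured members, 8 rose and 1 fell (50% called, against 17.5% of all genes), with a median of 0.36. NID2, which links laminin to collagen IV, gave 3.57, 4.28 and 4.42 on the control arrays and 8.33, 7.99 and 8.22 on the sh2 arrays, from about the background to a clear signal on all 3 sh2 arrays. NID2 rose by 4.09 (adjusted p = 1.96e-06), and on the sh1 arrays it was at a mean of 3.31. Its relative NID1 was brighter, gave 10.40, 10.22 and 10.32 on the control arrays and 13.11, 12.87 and 12.99 on the sh2 arrays and rose by 2.68 (adjusted p = 5.27e-08). COL4A1 and COL4A2, which share a promoter region on chromosome 13, rose by 1.75 and 0.91, and LAMA4 by 1.09 (adjusted p = 8.59e-05, 0.00201 and 0.000508). COL18A1, a basement membrane collagen, fell by 0.57 (adjusted p = 0.00957). The higher count was 5 without control array 2, and off the 5 shifted chromosomes 5 of 14 rose and 1 fell.

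Of 71 measured collagens and matricellular genes, 8 rose and 17 fell (35.2% called, against 17.5% of all genes), at a median of -0.03. Off the 5 shifted chromosomes 5 rose and 9 fell of 46. COL1A1, the main chain of type I collagen, gave 9.94, 9.67 and 9.92 on the control arrays and 6.32, 6.33 and 6.44 on the sh2 arrays and fell by 3.48 (adjusted p = 5.02e-08). Its partner COL1A2 fell by 1.16, COL5A1 by 3.42, THBS1 (thrombospondin, an activator of TGF-beta) by 2.45 and TNC (tenascin C) by 1.69. COL5A2 went the other way and rose by 2.97, as did COL11A1 by 2.02 and POSTN (periostin) by 1.09 (adjusted p = 2.73e-07, 8.99e-07 and 0.0099). Chains of the same fibril therefore moved apart, since COL5A1 and COL5A2 form 1 collagen. Among 38 metalloproteinases and inhibitors 4 rose and 6 fell (26.3% called, against 17.5% of all genes). Besides MMP1, the membrane-bound MMP15 rose by 1.71, and MMP2 (gelatinase A), ADAM19 and ADAM22 fell by 1.42, 1.94 and 3.57 (adjusted p = 6.31e-05, 7.04e-06, 0.000118 and 2.89e-07). The inhibitors TIMP1 and TIMP3 differed by 0.06 and -0.17 (adjusted p = 0.873 and 0.611). The higher count of the metalloproteinase list was 2 without control array 2.

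Cell adhesion genes held some of the largest losses and gains side by side. CDH2, the mesenchymal cadherin, gave 11.93, 11.85 and 11.98 on the control arrays and 5.64, 5.82 and 6.05 on the sh2 arrays and fell by 6.08 (adjusted p = 1.63e-09). CDH3 (P-cadherin) fell by 1.11, and CDH18, a neural cadherin, rose by 3.25 (adjusted p = 0.00023 and 1.32e-08). Groups stood apart in all of these. Desmosomes are the junctions that anchor keratin filaments. DSC2, a desmosomal cadherin, gave 10.62, 10.26 and 10.79 on the control arrays and 5.49, 5.49 and 5.13 on the sh2 arrays, and its partner DSG2 gave 10.29, 10.17 and 10.56 on the control arrays and 7.15, 7.10 and 7.19 on the sh2 arrays. DSC2 fell by 5.19 and DSG2 by 3.19 (adjusted p = 3.33e-09 and 1.05e-07). Both were also below sh1, by 2.75 and 2.33. DSP, the plaque protein that ties them to keratin, fell by 0.84, while the plaque proteins PKP2 and PPL rose by 3.05 and 1.21 (adjusted p = 0.00282, 3.46e-06 and 0.000119). Of 15 desmosomal genes 2 rose and 3 fell against the control (33.3% called, against 17.5% of all genes). Against sh1, 0 were higher and 5 lower (6.32% and 6.04% over all genes), in comparisons that share the sh2 arrays.

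Adhesion molecules of the immunoglobulin family were called at 12 of 32 (5 higher and 7 lower), or 37.5% against 17.5% of all genes. CADM1 gave 12.09, 11.93 and 12.02 on the control arrays and 6.34, 5.89 and 5.32 on the sh2 arrays and fell by 6.16 (adjusted p = 3.72e-08). NECTIN3 and ALCAM, which bind nectins and CD6, fell by 4.74 and 4.54, and NECTIN1 by 1.08. NCAM1 gave 5.53, 5.58 and 5.47 on the control arrays and 10.79, 10.94 and 11.13 on the sh2 arrays, with all sh2 arrays far above the control. NCAM1 rose by 5.43 (adjusted p = 2.1e-09), and NECTIN2 by 0.99 (adjusted p = 0.000808). CD24, a small sialoglycoprotein used as a marker of tumour cell subsets, gave 11.63, 11.48 and 11.49 on the control arrays and 7.14, 6.16 and 6.70 on the sh2 arrays and fell by 4.87 (adjusted p = 3.27e-08), to 3.5 below sh1 as well. The higher count of the immunoglobulin list was 3 without control array 2, control array 3 or sh2 array 2. Of 40 tight junction and polarity genes 4 rose and 2 fell (1 without control array 1 or sh2 array 2), a called share of 15% that was no larger than the 17.5% of all genes. CLDN4 and CLDN7, claudins of tight epithelia, rose by 1.84 and 1.24 (adjusted p = 9.44e-05 and 3.95e-05), and OCLN and TJP1 differed by 0.16 and 0.36 (adjusted p = 0.463 and 0.0751). Among connexins GJA1 (connexin 43) rose by 3.82 and GJB2 (connexin 26) by 2.69 (adjusted p = 2.58e-08 and 1.07e-06).

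Among regulators of epithelial state, SNAI2 (Slug), a repressor of E-cadherin, gave 7.42, 7.18 and 7.23 on the control arrays and 4.77, 4.75 and 4.04 on the sh2 arrays and fell by 2.76 (adjusted p = 4.01e-06). ESRP1, which directs epithelial splicing, gave 4.27, 5.01 and 4.36 on the control arrays and 8.37, 8.51 and 8.54 on the sh2 arrays and rose by 3.93 (adjusted p = 9.61e-08). Neither gene had overlapping groups. ESRP1 was still 5.41 below its level in sh1 (adjusted p = 2.24e-08). ZEB1 differed by -0.09 and VIM by -0.05 (adjusted p = 0.722 and 0.858). Of 34 measured pancreatic lineage genes 6 rose and 0 fell (1 without control array 2), a called share of 17.6% that is close to the background of 17.5%. HNF4G, a nuclear receptor of gut epithelium, rose by 3.40 from 5.36 and KLF5, a factor of epithelial progenitors, by 3.32 from 5.04 (adjusted p = 4.32e-08 and 1.57e-07). AGR2 gave 8.76, 8.43 and 8.26 on the control arrays and 13.04, 13.23 and 13.22 on the sh2 arrays, among the brightest genes of the list. TSPAN8, a tetraspanin of pancreatic tumours, rose by 1.5, NR5A2 (an acinar and progenitor receptor) by 1.34 and ELF3 (an epithelial ETS factor) by 1.19 (adjusted p = 0.00208, 0.000138 and 0.0108). GATA6 differed by -0.05 and FOXA2 by 0.24 (adjusted p = 0.906 and 0.428).

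Called contractile genes were mostly lower. Myosin II pulls on actin when its light chain is phosphorylated by MYLK, and tropomyosins, calponins and caldesmon bind the filament. Of 28 measured actin regulators and myosin II genes, 12 fell and 3 rose (53.6% called, against 17.5% of all genes), at a median of -0.24. The median was -0.03 for the 25 off the shifted chromosomes, of which 10 fell and 3 rose. MYLK gave 10.40, 10.45 and 10.68 on the control arrays and 6.93, 6.84 and 7.95 on the sh2 arrays and fell by 3.27 (adjusted p = 3.82e-06). MYL9, its substrate, gave 13.38, 13.22 and 13.25 on the control arrays and 10.91, 10.38 and 10.97 on the sh2 arrays and fell by 2.53. TPM1 gave 14.77, 14.70 and 14.62 on the control arrays and 12.41, 12.14 and 12.59 on the sh2 arrays and fell by 2.32. Even in the bright TPM1 no sh2 array reached a control array. CALD1 and the heavy chains MYH10 and MYH9 fell by 2.10, 2.05 and 1.08 (adjusted p = 2.37e-05, 1.21e-05 and 0.000101). SCIN and CAPG rose by 5.66 and 0.68, and ACTA2 differed by 0.04 (adjusted p = 0.888). Integrins, the matrix receptors linked to these filaments, had 3 higher and 3 lower of 25 (24% called, against 17.5% of all genes). ITGA6, ITGA2 and ITGA5 were higher by 0.96 to 1.17 and ITGA3, ITGA11 and ITGAV lower by 0.65 to 1.20.

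**Figure D3:**
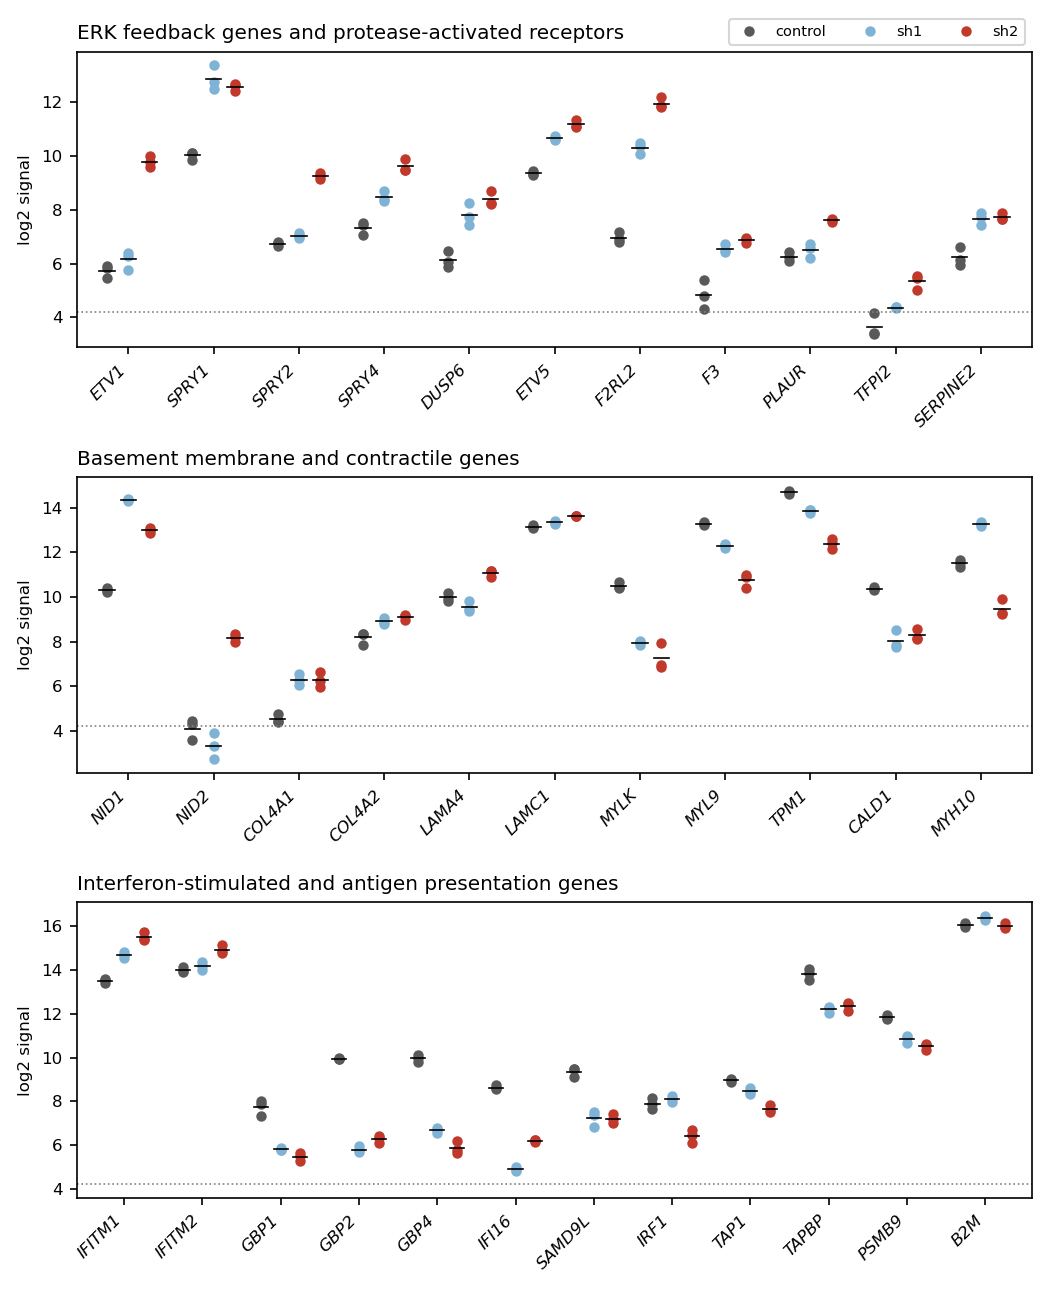
Log2 signal (vertical axis) per array for ERK feedback and protease-activated receptor genes (top), basement membrane and contractile genes (middle) and interferon-stimulated and antigen presentation genes (bottom); grey is control, blue sh1, red sh2, short lines are means and the dotted line is the lower quartile of row means (4.21). ETV1, SPRY2, NID2 and PLAUR are higher in sh2 than in both other groups, MYL9 and TPM1 are lower than in both, and in B2M the control and sh2 points overlap.

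Called interferon-stimulated genes went both ways and were more often lower. Of 52 measured, 18 fell and 7 rose, a called share of 48.1% against 17.5% of all genes, with a median of -0.26. Off the 5 shifted chromosomes 15 of 44 fell and 6 rose, against 1015 and 1143 of all 14266 genes there. Guanylate-binding proteins, GTPases that attack membranes of invading microbes, were among those that fell. GBP4 gave 9.82, 10.10 and 9.98 on the control arrays and 5.67, 5.77 and 6.20 on the sh2 arrays, and GBP1 gave 7.87, 8.01 and 7.32 on the control arrays and 5.67, 5.27 and 5.50 on the sh2 arrays. GBP2 gave 9.99, 9.94 and 9.94 on the control arrays and 6.42, 6.12 and 6.35 on the sh2 arrays, so that control and sh2 stood apart in all 3. They fell by 4.09, 2.25 and 3.66 and GBP3 by 1.96 (adjusted p = 1.95e-08, 6.3e-06, 1.07e-08 and 2.47e-05). The GBP genes are related neighbours on chromosome 1, with the reservation that probes could share them. SAMD9L (a growth-restricting antiviral protein), TLR3 (a receptor of double-stranded RNA) and IFI16 (a DNA sensor) fell by 2.15, 2.01 and 2.43 (adjusted p = 1.85e-05, 1.85e-05 and 1.08e-07). IRF1, the factor that drives many of them, fell by 1.49 against the control and was 1.68 lower than in sh1 (adjusted p = 0.000188 and 9.03e-05). It lies on chromosome 5, where genes brighter than the median row had a median of -0.53 against the control. What that region contributes was not tested. Among the genes that rose was IFITM1, which blocks viral entry. IFITM1 gave 13.52, 13.57 and 13.41 on the control arrays and 15.43, 15.71 and 15.38 on the sh2 arrays. It rose by 2.01, and its close copies IFITM2 and IFITM3, which probes may not separate, by 0.93 and 0.55 (adjusted p = 1.58e-06, 0.00105 and 0.00794). IRF9, part of ISGF3, and the receptor chain IFNGR2 rose by 0.84 and 0.78, and IFNGR1 fell by 0.79. MX1 differed by -0.26 and ISG15 by -0.23 (adjusted p = 0.357 and 0.488).

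Antigen presentation by MHC class I, in which the proteasome cuts peptides, TAP carries them and tapasin loads them, was lower at 11 of 21 measured genes and higher at 1, with a median of -0.67. The called share was 57.1%, against 17.5% of all genes. TAPBP (tapasin) gave 14.03, 13.54 and 13.88 on the control arrays and 12.49, 12.44 and 12.15 on the sh2 arrays, and TAP1 gave 9.04, 8.91 and 8.97 on the control arrays and 7.85, 7.53 and 7.60 on the sh2 arrays. PSMB9, an immunoproteasome subunit, gave 11.78, 11.93 and 11.83 on the control arrays and 10.59, 10.36 and 10.62 on the sh2 arrays. All sh2 values of these 3 genes were below all control values. TAPBP fell by 1.46, PSMB9 by 1.32, TAP1 by 1.31, PSMB8 by 1.05 and TAP2 by 0.96 (adjusted p = 7.8e-05, 5.02e-05, 5.13e-05, 0.00078 and 0.0028), while ERAP2, a peptide-trimming enzyme, fell by 1.36. HLA-C and HLA-F fell by 0.82 and 1.02, with alleles and copies that probes may not separate. B2M, the common light chain, differed by -0.05 (adjusted p = 0.856). Most of these genes lie on chromosomes 5 and 6, the median of their neighbours was -0.30, and of the 4 measured members elsewhere 0 were called. What those regions contribute to the list's count was not tested.

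NF-kB targets were lower as well, at 7 of 17 measured genes with 1 higher (47.1% called against 17.5% of all genes, median -0.47). The higher count was 0 to 2 without single arrays of the control or sh2 and 2 without sh1 array 2. TNIP1 and TNFAIP3, inhibitors induced by NF-kB, fell by 1.54 and 1.41, and TRAF1 and IRAK2, adaptors of its receptors, by 1.20 and 1.07 (adjusted p = 3.98e-05, 2.1e-05, 0.000845 and 0.00327). TNIP1 is on chromosome 5 and TNFAIP3 on chromosome 6, and 4 of 12 members elsewhere fell. Of 54 chemokines, interleukins and receptors 6 rose and 5 fell (20.4% called, close to the 17.5% of all genes), with 2 and 3 higher without control array 1 and sh2 array 2. IL32, an inflammatory cytokine, gave 10.22, 10.02 and 10.07 on the control arrays and 7.14, 6.56 and 6.78 on the sh2 arrays, and fell by 3.28. IL7R fell by 1.87 and IL7 by 1.56, and IL4R rose by 1.31 and IL18 by 0.96 (adjusted p = 8.89e-07, 0.000594, 4e-05, 0.000123 and 0.00294). CXCL8 and IL6 differed by 0.08 and -0.08 (adjusted p = 0.831 and 0.881).

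Receptors and targets of TGF-beta moved in both directions, with 10 of 55 higher and 13 lower (41.8% called, against 17.5% of all genes). TGFBR3 (betaglycan), the co-receptor, gave 6.47, 5.87 and 6.56 on the control arrays and 10.04, 10.41 and 10.19 on the sh2 arrays and rose by 3.91 (adjusted p = 6.22e-08), and stood 4.04 above sh1 (adjusted p = 1.03e-07). TGFBR2 rose by 0.76, and TGFBR1, the signalling receptor, gave 9.51, 9.61 and 10.04 on the control arrays and 7.35, 7.23 and 7.41 on the sh2 arrays and fell by 2.39 (adjusted p = 0.00131 and 1.58e-06). The 3 receptors of 1 ligand thus changed in different directions. The targets TGFBI and PMEPA1 fell by 2.58 and 2.53, the latent binding proteins LTBP1 and LTBP2 by 1.76 and 1.81 and the ligand TGFB3 by 1.45 (adjusted p = 7.55e-08, 6.73e-07, 5.63e-06, 3.58e-05 and 0.00161). ID2, a BMP target, fell by 1.43 (adjusted p = 0.00107).

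WNT signalling genes were called at about the share of all genes, 12 of 62 (19.4%), with 6 in each direction. TNIK, above, gave 4.28, 4.30 and 4.33 on the control arrays and 11.10, 11.04 and 11.03 on the sh2 arrays. LGR4, a receptor of R-spondins, rose by 1.49, LEF1, a nuclear partner of beta-catenin, by 0.73, and WNT10A and WNT5A, ligands, fell by 1.99 and 1.32 (adjusted p = 6.04e-05, 0.00647, 5.94e-07 and 0.0109). AXIN2, a target of the pathway, differed by -0.32 (adjusted p = 0.323). Among guidance receptors the called share was larger, with 6 higher and 5 lower of 21 Eph receptors and ephrins (52.4%). EPHB6, a receptor without kinase activity, rose by 3.25 and was 2.78 above sh1, EFNB2, a ligand, rose by 1.61 and EPHA2 by 1.11, and EPHA4 and EPHA5 fell by 1.89 and 2.16 (adjusted p = 8.78e-06, 3.01e-05, 0.000268, 0.000163 and 3.15e-05). The lower count of that list was 3 without control array 1 or sh2 array 3. Of 35 semaphorin pathway genes 6 rose and 5 fell (31.4% called, against 17.5% of all genes). NRP2 gave 7.62, 7.75 and 8.50 on the control arrays and 3.57, 3.47 and 3.69 on the sh2 arrays, the other neuropilin NRP1 rose by 0.73, and SEMA3A rose by 1.49 while SEMA3E fell by 1.76 (adjusted p = 0.00367, 4.65e-06 and 1.74e-05).

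**Figure D4:**
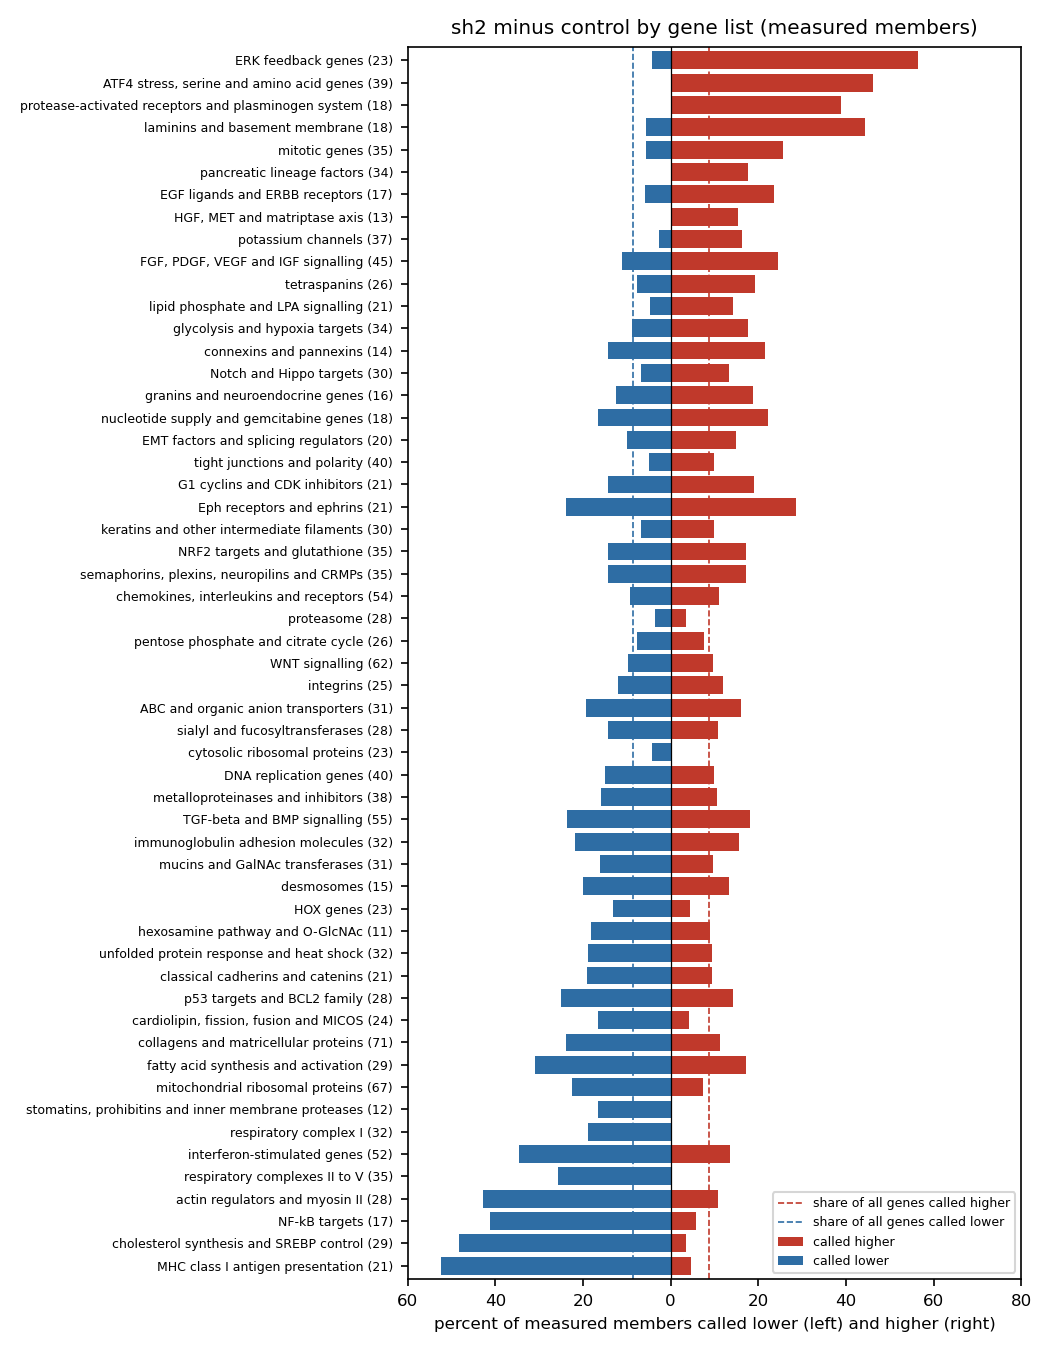
Percent of measured members called higher (red, right) and lower (blue, left) in sh2 minus control for each gene list, with the number of measured members in brackets; dashed lines give the shares over all genes, 8.81% higher and 8.66% lower. ERK feedback, ATF4 and basement membrane genes reach furthest to the right without a matching left bar, and antigen presentation and cholesterol genes furthest to the left.

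Metabolic genes included 1 list with gains alone. ATF4 induces genes of serine and amino acid supply under stress, and 18 of 39 such genes rose and 0 fell (46.2% called, against 17.5% of all genes). The median was 0.57, and off the shifted chromosomes 16 of 33 rose and 0 fell. CTH, which makes cysteine, rose by 1.43, CBS by 1.06 (a copy, CBSL, may share its probes), SHMT2 by 1.04 and PHGDH, the first enzyme of serine synthesis, by 0.86 (adjusted p = 0.000265, 7.21e-05, 0.00038 and 0.000458). GDF15, a secreted cytokine of stressed cells, was higher than the control by 1.80 and remained 1.74 under sh1 (adjusted p = 1.86e-05 and 2.98e-05). ATF4 itself rose by 0.62, and ASNS and DDIT3 differed by 0.20 and 0.58 (adjusted p = 0.0119, 0.471 and 0.423).

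Cholesterol genes were lower at 14 of 29 and higher at 1 (51.7% called, against 17.5% of all genes), at a median of -0.40. Off the shifted chromosomes 10 of 25 were lower and 1 higher. ACAT2, a cytosolic thiolase, gave 10.98, 10.96 and 10.75 on the control arrays and 9.20, 8.81 and 8.81 on the sh2 arrays, and STARD4, a sterol carrier, gave 8.78, 8.22 and 8.43 on the control arrays and 6.50, 6.70 and 6.51 on the sh2 arrays. No sh2 value of either gene reached a control value. ACAT2 fell by 1.96, STARD4 by 1.91, CYP51A1 by 1.72 and HMGCS1 by 1.40 (adjusted p = 3.39e-06, 1.82e-05, 2.53e-06 and 1.21e-05), and ABCA1, the exporter, rose by 1.60 (adjusted p = 0.000276). ACAT2 lies on chromosome 6 and STARD4 and HMGCS1 on chromosome 5, where genes brighter than the median row had medians of -0.20 and -0.53. What those regions contribute was not tested. ACAT2 and STARD4 lay 1.18 and 1.40 below sh1, and in all 8 members were lower than in sh1 and 3 higher (6.04% and 6.32% over all genes). SREBF1 and SREBF2, the factors that drive these genes, differed by 0.34 and -0.38 (adjusted p = 0.24 and 0.154). The higher count was 2 without sh2 array 3. Of 29 fatty acid genes 5 rose and 9 fell (48.3% called, against 17.5% of all genes). ELOVL6, which elongates palmitate, gave 7.45, 7.74 and 7.36 on the control arrays and 8.98, 9.18 and 9.19 on the sh2 arrays and rose by 1.60, whereas ACSL5 and FADS2 fell by 2.52 and 1.83 (adjusted p = 1.22e-05, 5.62e-06 and 7.37e-06). CPT2 and ACADVL, of mitochondrial fatty acid oxidation, rose by 1.26 and 1.13 (adjusted p = 0.000125 and 0.00201).

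Nuclear genes of the respiratory chain had 0 members higher. Of 32 complex I genes 6 fell, and 9 of 35 in complexes II to V, shares of 18.8% and 25.7% called against 17.5% of all genes. The complex I share is close to that of all genes. Off the 5 shifted chromosomes 3 of 27 complex I genes and 6 of 27 others fell, against 1015 of 14266 over all genes. UQCRQ and NDUFA2, small subunits, fell by 1.12 and 0.94 (adjusted p = 0.00033 and 0.00327), and both lie on chromosome 5, where neighbours had medians of -0.65 and -0.61. NDUFB7 on chromosome 19 fell by 0.87 (adjusted p = 0.00348). NDUFA11 and NDUFS4 fell by 0.59 and 0.54 (adjusted p = 0.0358 and 0.0445). Neither was called without control array 1, 2 or 3, nor without some other arrays (adjusted p = 0.0637 to 0.132 and 0.0521 to 0.155). The count for complexes II to V was 5 without control array 1. Of 67 mitochondrial ribosomal proteins 5 rose and 15 fell (29.9% called, against 17.5% of all genes). The latter count was 7 to 9 without control array 1, sh2 array 2 or sh2 array 3, and the former 1 to 3 without those or other single arrays. Off the shifted chromosomes 3 rose and 7 fell of 51. MRPS23 fell by 1.09 and MRPL14 by 0.97 (adjusted p = 0.000347 and 0.00247). In sugar metabolism TKT, the transketolase of the pentose phosphate pathway, fell by 1.62, RPIA of the same pathway rose by 1.23, HK2 (hexokinase) rose by 1.22, PDK1, which restrains pyruvate dehydrogenase, by 1.33 and the glucose transporter SLC2A3 by 1.60 (adjusted p = 4.43e-06, 0.000564, 0.00028, 7.42e-05 and 0.000252). GFPT1, which starts the hexosamine pathway, rose by 1.25 (adjusted p = 0.000329). TXNRD1 and MGST1 rose by 0.78 and 1.31 among NRF2 targets and glutathione genes, and GPX3, a secreted peroxidase, fell by 1.46 (adjusted p = 0.000691, 0.000817 and 0.00016).

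Cell cycle and p53 genes were called in both directions. As a reference, cytosolic ribosomal proteins (0 of 23 higher and 1 lower) and proteasome subunits (1 and 1 of 28, or 0 to 2 of each without single arrays) were called at 4.35% and 7.14%, against 17.5% of all genes. CDKN1A (p21), an inhibitor of cyclin-dependent kinases and a p53 target, gave 9.66, 9.32 and 9.48 on the control arrays and 7.41, 7.50 and 7.28 on the sh2 arrays and fell by 2.09 (adjusted p = 1.07e-06). It lies on chromosome 6, with a neighbour median of -0.42. MDM2, another p53 target, rose by 1.03 on chromosome 12 (neighbour median 0.45), TP53I3 and TP53INP1 fell by 1.21 and 1.08, and FAS rose by 0.76 (adjusted p = 0.00038, 0.000246, 0.00898 and 0.0032). Of 13 p53 targets 2 rose and 4 fell (46.2% called, against 17.5% of all genes). Of 15 BCL2 family genes 2 rose and 3 fell (33.3% called). CCND2 rose by 1.42 (adjusted p = 0.000231), and CCND1 differed by -0.18 (adjusted p = 0.373). Of 35 mitotic genes 9 rose and 2 fell (31.4% called, against 17.5% of all genes). The counts were 4 to 5 and 0 to 1 without control array 1, control array 3 or sh2 array 1 and also changed without others. PRC1, of the spindle midzone, rose by 1.06 and AURKB by 0.75 (adjusted p = 0.000187 and 0.00847). MKI67 differed by 0.05 (adjusted p = 0.859).

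Set against the first hairpin clone, sh2 differed at 2186 of 17687 genes (12.4%), with 1118 higher (6.32%) and 1068 lower (6.04%). The differences leave the control out, but their p-values rest on a spread estimated over all 9 arrays, control included. Genes called in the same direction in sh2 minus control and sh2 minus sh1, which share the sh2 arrays, numbered 799. Among these, the highest above sh1 were NCAM1 (6.88), MAL2, MMP1, ZNF385D (5.36), NID2 (4.87), SYT1 (4.18), TGFBR3, HGF, LSAMP (3.91) and APOBEC3B (3.86). SYT1, a calcium sensor of vesicle release, gave 8.29, 8.37 and 8.86 on the control arrays and 12.12, 12.43 and 12.30 on the sh2 arrays against a mean of 8.10 in sh1. LSAMP, a neural adhesion protein, went from 4.26 to 7.85, and APOBEC3B, a cytidine deaminase, from 9.99 to 11.21. Among the same 799, the lowest were GATM (-4.14), DSE (-4.13), ATRNL1 (-4.12), MAP2 (-4.11), MCOLN3 (-3.87), DSP (-3.80), MYH10 (-3.80), CD24, RASEF (-3.25) and FAXC (-3.04). MAP2, a microtubule-binding protein of neurons, gave 12.18, 12.18 and 12.21 on the control arrays and 8.69, 8.18 and 8.32 on the sh2 arrays, and GATM, the first enzyme of creatine synthesis, gave 7.07, 7.27 and 7.13 on the control arrays and 5.93, 6.04 and 6.43 on the sh2 arrays. Every adjusted p of sh2 minus sh1 among these 20 genes was at most 1.17e-05.

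In 107 genes sh1 and sh2 were called in opposite directions from the control, which both comparisons share. ZNF385D, a zinc finger protein, went from 9.03 in the control to 5.75 in sh1 and 11.10 in sh2. ATRNL1, an attractin-like membrane protein, was at 8.07, 10.19 and 6.07, and SYT9, a synaptotagmin, at 8.39, 6.47 and 10.26. MYH10, a myosin II heavy chain, gave 11.52, 13.26 and 9.47, and CA13, a carbonic anhydrase, 7.71, 6.01 and 9.53. These are the 5 with the largest smaller change, and their arrays did not overlap between any 2 groups. The epithelial genes EPCAM and SPINT1 differ in another way, with means of 13.88 and 11.95 in sh1 against 9.68 and 6.64 in sh2, close to 8.94 and 5.99 in the control.

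Differences were not spread evenly over the chromosomes. On chromosome 5, 265 of 756 genes were lower (35.1%) and 22 higher (2.91%), and the median over its 432 genes brighter than the median row was -0.53. Chromosome 6 had 19.9% lower and 4.97% higher at a median of -0.20, and chromosome 17 had 14.2% lower and 4.07% higher at -0.14. In the other direction 21.7% of genes on chromosome 12 were higher and 3.34% lower (median 0.32), with 18.5% and 4.42% on chromosome 15 (0.25) and 16.9% and 4.48% on chromosome 13 (0.25). Chromosome 7 had 15.2% higher and 9.12% lower at a median of 0.14. Against sh1 the brighter genes of chromosome 15 were lower, at a median of -0.48, while those of chromosome 12 were at 0.03 and those of chromosome 5 at -0.24. Whether DNA copy number differed between the clones was not measured. Where a count off the shifted chromosomes is given above, members on chromosomes 5, 6, 12, 13 and 15 were left out. Members on chromosomes 7 and 17 stayed in. With the same chromosomes left out, 14266 of all genes remained, of which 1143 were higher and 1015 lower.

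**Figure D5:**
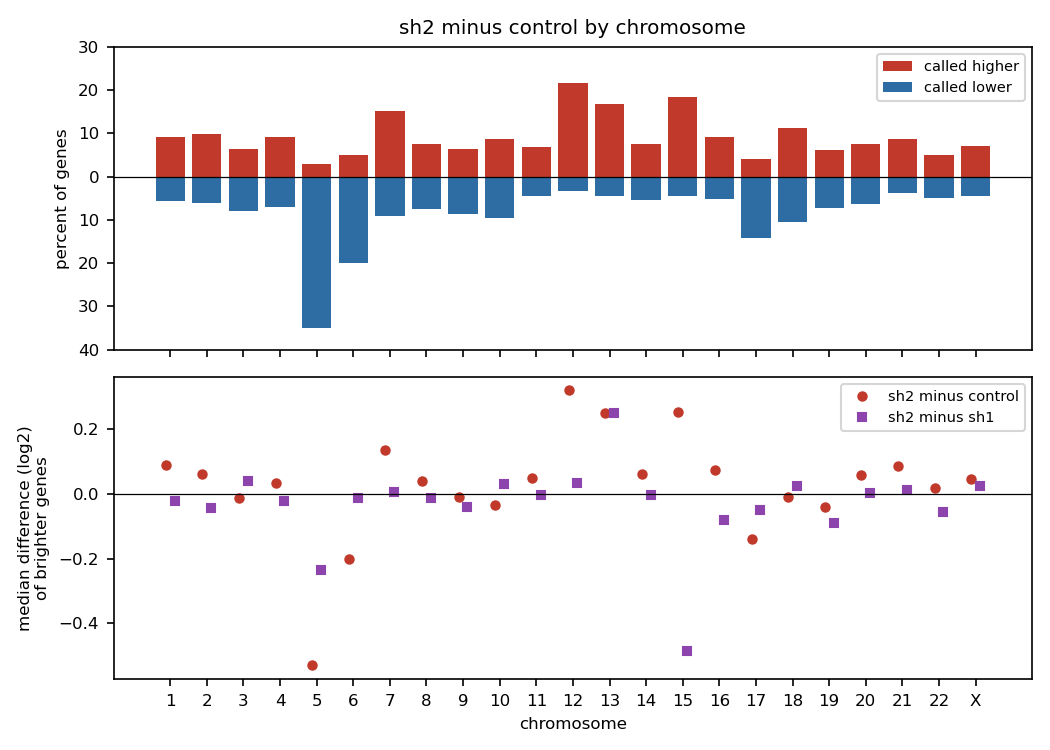
By chromosome, percent of genes called higher (red, above 0) and lower (blue, below 0) in sh2 minus control (top), and the median log2 difference of genes brighter than the median row (bottom) for sh2 minus control (red circles) and sh2 minus sh1 (purple squares). Chromosome 5 stands lowest in sh2 minus control at -0.53 and chromosome 12 highest at 0.32, and chromosome 15 lies at -0.48 in sh2 minus sh1.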

How the data were processed

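Total RNA of AsPC-1 clones was measured on 9 arrays (3 control, 3 sh1, 3 sh2). The deposited values run from 2.03 to 18.57 with near-identical distributions on every array, and on that basis were taken to be log2 signals. Per the submitters' processing notes the authors used Transcriptome Analysis Console (version not given in the sources used here), and no further scaling was applied. Limma 3.58.1 in R 4.3.3 fitted 1 model over all 9 arrays (6 residual degrees of freedom), with sh2 minus control and sh2 minus sh1 as contrasts and Benjamini-Hochberg adjustment over 21448 rows. Errors are SE from this model or SD over 3 arrays. For 20 genes with more than 1 row, the row with the highest mean was used.

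Members and gene lists were chosen with earlier results of these data known. Genes named were STOML2, the 15 largest differences each way with non-overlapping arrays, the 10 largest each way against sh1 among genes called with the same sign against the control, the 5 opposite in the lines and up to 6 called members per list. Further members, STC1 and BDNF were named after their values were seen. Neighbours are the 40 nearest genes brighter than the median row, by RefSeq order on GRCh38. The model was tested on simulated data. Alternatives covered scaling, filters, the prior, samples, a block, the threshold and each array left out. The count of list members off chromosomes 5, 6, 12, 13 and 15 was added after seeing the data.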

Additional observations from a re-analysis of the deposited data

Results flagged for a closer look

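In 27 of the genes named here sh1 and sh2 were called in opposite directions from the control that they share, and sh2 minus sh1, which does not use the control, was called as well. Values are log2 differences of sh2 minus sh1, with adjusted p from limma of at most 0.000146.

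Among the genes higher in sh2 than in sh1 were NCAM1 (6.88), ZNF385D (5.36), APOBEC3B (3.86), SYT9 (3.79) and CA13 (3.52). Enzymes and carriers of lipids and small molecules followed, with ELOVL6 at 3.47, MGST1, a microsomal glutathione transferase, at 2.73, SLCO4A1, an organic anion transporter, at 2.04, ST8SIA4 at 3.05 and PLPP3, a lipid phosphatase, at 2.12. Surface receptors and signalling genes were LPAR3 (2.40), LGR4 (2.57), the integrin chain ITGA2 (1.92), NRP1 (1.55) and the nuclear factor LEF1 (1.31). NES (nestin), an intermediate filament protein, was at 2.66, although its call against the control was lost without control array 2 or sh2 array 2 (adjusted p = 0.0574 to 0.059).

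Lower in sh2 than in sh1 were GATM (-4.14), DSE, an epimerase of dermatan sulfate (-4.13), ATRNL1 (-4.12), MCOLN3, a lysosomal cation channel (-3.87), RASEF, a RAB-type GTPase (-3.25), and MYH10 (-3.80). Junction genes in this group were DSP at -3.80, CDH1 at -2.55 and AMOTL1, an angiomotin that binds YAP, at -2.17. IGFBP7 was at -2.89 and WNT10A at -2.44. The call of CDH1 against the control was among those lost without single arrays, as given with the marker genes.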

How the results depend on the processing

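The counts of rows called that follow are over all 21448 rows. Requiring an adjusted p under 0.01 left 1921 of 3498 rows in sh2 minus control (900 higher and 1021 lower) and 1331 of 2423 in sh2 minus sh1 (719 higher and 612 lower). Under the other settings, which were quantile normalization, arrays shifted to a common median, 1 row per gene, dim rows left out, a trended and robust prior, the compared arrays alone and a replicate block, sh2 minus control gave 3242 to 4131 rows and kept STOML2 at -5.97 to -5.94. Leaving out 1 array gave 2455 to 3587 rows in sh2 minus control (1192 to 1837 higher and 1263 to 1750 lower), 959 to 1057 at 2-fold (429 to 486 higher and 509 to 571 lower) and 1803 to 2271 in sh2 minus sh1 (943 to 1158 higher and 860 to 1113 lower), with STOML2 at -6.07 to -5.75. Array numbers were not used to pair the groups in the main fit. Deviations of same-numbered control and sh2 arrays correlated at 0.180, -0.003 and 0.050, and those of different numbers at -0.142 to 0.106. Arrays numbered 1 also correlated at 0.086 (control with sh1) and 0.122 (sh1 with sh2). The labels do not say whether arrays of the same number were handled together. With the replicate block 3432 rows were called (1755 higher and 1677 lower), and 10 of the genes named lost their call. Fitted to the sh1 and sh2 arrays alone, sh2 minus sh1 gave 1969 rows. Of 379 genes named besides STOML2, 54 lost the call without at least 1 array, 61 at the 0.01 threshold and 13 under another setting, and none of the runs changed the sign of a called one. The 49 genes whose difference between sh2 and sh1 is printed kept that call and its sign in all of these runs. Differences of genes near the lower quartile of signals are limited by the background, for which no detection call was used.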

Other observations

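Several smaller families held single large changes in sh2. Among 37 measured potassium channels 6 rose and 1 fell, a called share of 18.9% that is close to the 17.5% of all genes. The largest change among them was that of KCNH7, an EAG-related channel, which gave 4.31, 4.75 and 3.87 on the control arrays and 7.96, 7.83 and 8.22 on the sh2 arrays and rose by 3.69 (adjusted p = 3.67e-07). KCNK2, a mechanosensitive leak channel, rose by 1.03 (adjusted p = 0.00313). The counts were 3 and 0 without sh2 array 2. Of 31 ABC and organic anion transporters 5 rose and 6 fell (35.5% called, against 17.5% of all genes). SLCO1B3, a liver-type uptake transporter also found in pancreatic tumours, gave 10.89, 10.90 and 10.89 on the control arrays and 7.53, 7.39 and 7.55 on the sh2 arrays and fell by 3.40 (adjusted p = 4.6e-08), with sh1 lower still at a mean of 4.77. ABCG2, a drug exporter, fell by 0.94 and SLCO4C1 rose by 1.62 (adjusted p = 0.00022 and 0.000174).

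In nucleotide supply NT5E (CD73), which makes adenosine outside the cell, gave 14.73, 14.86 and 14.81 on the control arrays and 16.30, 16.28 and 16.56 on the sh2 arrays and rose by 1.58 (adjusted p = 1.74e-05). TYMS rose by 0.90, and TK1 and the nucleoside transporter SLC29A1, by which gemcitabine enters cells, fell by 1.12 and 0.75 (adjusted p = 0.00182, 0.00493 and 0.0014). SLC29A1 lies on chromosome 6 among neighbours with a median of -0.70. In ganglioside synthesis ST8SIA1 and ST3GAL5 fell by 2.25 and 1.66, while ST8SIA4, which builds polysialic acid on NCAM1, rose by 1.72 (adjusted p = 4.86e-06, 9.18e-05 and 0.000242). Tetraspanins included CD82, a suppressor of cell movement, which fell by 2.03, and TSPAN13, which rose by 2.02 (adjusted p = 1.12e-05 and 1.33e-06). LIPH, which makes lysophosphatidic acid (LPA), and its receptor LPAR3 rose by 1.71 and 1.71 (adjusted p = 6e-06 and 3.46e-05). Heat shock genes HSP90AA1 and DNAJB1 fell by 1.13 and 0.91, and SEL1L, of the degradation machinery of the endoplasmic reticulum, by 1.57 (adjusted p = 0.000202, 0.0024 and 1.15e-05). SCG2, a granin of secretory granules, rose by 3.33 from 3.52, and CPE, a prohormone-processing enzyme of the same granules, fell by 2.32 (adjusted p = 3.35e-07 and 5.78e-05).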
